A study of Bos taurus with 8 samples.

Results

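PA-eSLCs are bovine embryo-derived stem-like cells grown from parthenogenetic embryos, and their 2 arrays, P1 and P4, were compared with the 4 arrays of eSLC lines that hold a maternal and a paternal genome. The members are the arrays that the labels place in the PA group, 2 of 8 in the series. The biparental lines were I2 and I9 from in vitro produced (IVP) embryos, which are made with sperm, and N2 and N7 from nuclear transfer (NT) embryos, which receive the nucleus of a somatic cell. P1 was at passage 31, P4 at passage 36, I2 at passage 35, I9 at passage 30, N2 at passage 36 and N7 at passage 30. All lines came from HanWoo cattle, were derived from zona-free blastocysts on murine STO feeder cells, and were kept in 3i medium with PD184352, SU5402 and CHIR99021, inhibitors of MEK, the FGF receptor and GSK3. The parthenogenetic embryos came from oocytes activated with calcium ionophore and 6-DMAP in place of sperm, and the NT donor cells came from ear skin. The other 2 arrays held somatic cells (SCs) at passages 5 and 10 and entered no test here. Each array is 1 line at 1 passage, and the labels name no second culture of a line, so that a p-value measures the spread between lines. Fewer cells of a type and less RNA per cell cannot be told apart in such samples.

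A parthenogenetic mammalian embryo develops from an oocyte alone and holds only maternal genomes. Imprinted genes are expressed mainly from the allele of 1 parent, which carries or lacks a methylation mark set in the germ line. Genes expressed from the paternal allele should then have no active copy where imprinting is kept, and genes expressed from the maternal allele should have more than the usual dose. Many imprinted genes act in the placenta, and parthenogenetic embryos are known for a poor trophoblast. In the oocyte-derived embryo the centrioles, which sperm bring in most mammals, have to be formed anew.

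Signals are given as the background-subtracted signal of a probe scaled so that the 75th percentile of each array is 1000, with a floor of 13.3. Differences are given on the log2 scale as the mean of the 2 PA arrays minus the mean of the 4 biparental arrays. The array scans gave 71.2% to 76.7% of spots well above background, and no spot was flagged as saturated. Both PA arrays lay on slide 2, together with N2, and I2, I9 and N7 lay on slide 1. Slide and origin therefore cannot be told apart except through N2, and the difference from N2 alone is given for groups of genes and for single genes where it departs most. Some of the brightest probes differed with the slide, but not all. For SFN, N2 had 106242 and P4 had 98960, within the 87419 to 113912 of slide 1, while P1 had 187995. RPLP0, a ribosomal protein gene, had 444860 in P1, 347584 in P4 and 430850 in N2, and of 145446 to 208675 in the 3 arrays of slide 1. Its difference was 0.81 against the 4 biparental arrays, -0.13 against N2, and 0.10 after quantile normalization. The 75th percentile before scaling was 1192 to 1463 in P1, P4 and N2 and 2818 to 4092 in I2, I9 and N7. Differences of the brightest probes therefore depend on the scaling.

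Trophectoderm is the outer layer of the blastocyst that forms the placenta. Its markers CDX2 and GATA3 were present in both PA arrays. EOMES, another trophectoderm marker, was at the floor in both PA arrays and in every biparental array. CDX2, the transcription factor that sets up trophectoderm, had 13312 in P1 and 14887 in P4. GATA3, which acts beside it, had 30132 and 24423. POU5F1 (OCT4), the central factor of pluripotency, had 101 and 60.7, and SOX2 had 96.4 and 46.8. NANOG had 35.4 in P1 and was not well above background in P4. Other epiblast markers were brighter, SALL4 with 1361 and 1188, DPPA2 with 672 and 584 and LIN28A with 293 and 240. OTX2 and PRDM14 were at the floor in both PA arrays. Among the biparental arrays, POU5F1 had 898 in N7 and 30.7 to 50.5 in the others.

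Features of 2 single arrays bear on every result that follows. The first concerns P1. DDX3Y, a helicase gene of the Y chromosome, had a signal of 369 in P1 and 757 in N7, and was at the floor in the other 4 eSLC arrays. USP9Y, a Y-linked deubiquitinase gene, had 157 in P1 and 186 in N7 by 1 of its 2 probes and was at the floor elsewhere. EIF1AY, a Y-linked translation initiation factor, had 513 in N7 and was at the floor in P1, and the 2 probes of LOC528601 had 402 and 330 in N7 and were at the floor in P1. The probes of ZFY and ZNF280BY were well above background on all 6 arrays. ZFY had 79.7 in P1, 113 in P4 and 66.7 to 150 in the others, and did not separate the lines. Each probe of ZNF280BY was highest in N7. Its brightest probe had 1946 in N7, 500 in P1, 457 in P4 and 231 to 638 in the others. TSPY had 49.9 in N7 by its brightest probe and 17.5 in P1 by another of its 4 probes, and SRY was at the floor in all 6 arrays. An oocyte brings no Y chromosome, so that the signals of DDX3Y and USP9Y went against the label of P1, whereas those of EIF1AY and LOC528601 did not. SRY was at the floor in N7 too and could not tell the lines apart. The source of these signals was not tested. Values without P1 are given for groups of genes and for single genes that it moved most.

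The second concerns I2. Over the genes tested, the log2 signals of P1 and P4 had r = 0.9788 with each other, while I2 had r = 0.9825 with P1 and 0.9853 with P4. In numbers of genes at least 2-fold apart, P4 differed from I2 at 728 genes, from P1 at 1045, from I9 at 1431, from N2 at 1465 and from N7 at 1550. P1 differed from I2 at 980 genes and from the other 3 biparental arrays at 2069 to 2662. An IVP line on the other slide was thus nearer to each PA array than the PA arrays were to each other. These correlations are across genes of single arrays, which are not independent replicates. Values without I2 are given in the same way.

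**Figure D1:**
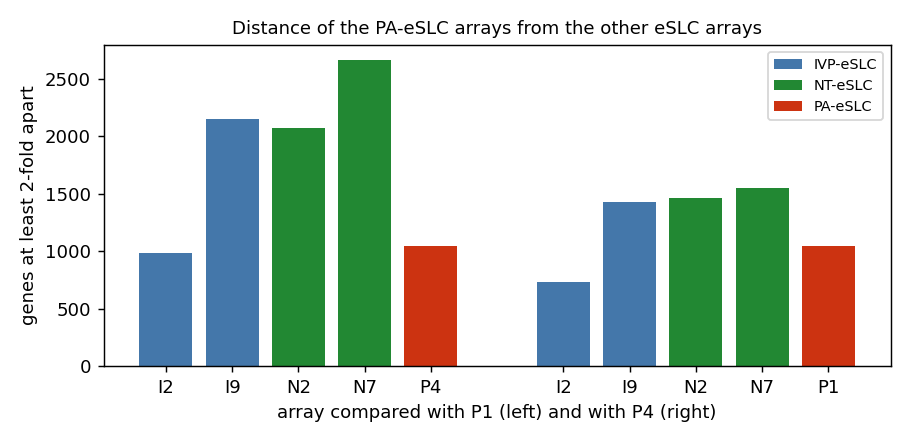
Bars give the number of genes at least 2-fold apart between P1 (left block) or P4 (right block) and each other eSLC array, coloured by origin. The lowest bar of each block is that of I2, with 980 genes for P1 and 728 for P4.

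No gene passed the test between PA- and biparental eSLCs. Of 10578 genes tested with limma, 0 were called higher and 0 lower at a Benjamini-Hochberg adjusted p under 0.05 and a 2-fold difference, a share of 0%, with 0.63 as the smallest adjusted p. Before adjustment 776 genes, or 7.34%, had p under 0.05. Among these, PA-eSLCs exceeded the biparental mean by 2-fold or more at 137 genes and were below it by as much at 96. By size and separation alone, 130 genes (1.23%) had both PA arrays above all 4 biparental arrays with a mean higher by 2-fold or more, and 110 genes (1.04%) had both below with a mean lower by as much. Irrespective of size, both PA arrays lay above all others for 12.5% of genes and below them for 4.9%. The mean was higher in PA-eSLCs for 57.9% of genes and lower for 42.1%. The median difference over all genes was 0.08.

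Without I2 the separated genes numbered 498 higher and 350 lower, and limma called 1 gene in each direction, LILRA4 and SUMF2. Without P4 they numbered 747 and 432, with UNCX as the 1 call. Without P1 they numbered 139 and 189, with no call. A lone PA array separates more easily than a pair, and its spread was taken to be that of the biparental arrays. With I2 and P1 both left out they numbered 407 and 399, again with no call. Against IVP-eSLCs alone the genes past 2-fold with the arrays apart numbered 157 higher and 209 lower, and against NT-eSLCs alone 551 and 362. These comparisons share the PA arrays, and limma called no gene in either.

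The genes with the largest separated differences are described next by their role. They were taken in order of size from 175 genes with an unadjusted p under 0.05, a 2-fold difference, both PA arrays apart and signals well above background on all 6 arrays, with 10 described as higher and 9 as lower, and the adjusted p of each was 0.63 (limma).

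Among the genes higher in PA-eSLCs, GYPC, which encodes the membrane protein glycophorin C (chromosome 2), had 1055 in P1 and 395 in P4, compared with 317 in I2, 41.6 in I9, 29.5 in N2 and 151 in N7. Its difference was 2.88 (standard error 1.05). CYP2C90, a cytochrome P450 of chromosome 26, had 199 and 283 against 155, 29.9, 19 and 21.6 in the same order of biparental arrays, a difference of 2.67 (standard error 0.876). In both genes I2 was the biparental array closest to the PA arrays.

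TNFRSF19 (chromosome 12), a receptor of the TNF family, had 831 in P1 and 310 in P4, compared with 76.8 to 183 in the biparental arrays. The difference was 2.19 (standard error 0.509) and hardly depended on I2, being 2.23 without it. ENTPD4 (chromosome 8), a nucleotidase of the Golgi, had 1376 and 372 against 161 to 218. Its difference of 1.91 was 0.97 without P1.

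ADA (chromosome 13), which encodes adenosine deaminase of purine breakdown, was the brightest of the set, with 56828 in P1 and 42784 in P4, compared with 32914 in I2, 7703 in I9, 5897 in N2 and 11236 in N7, a difference of 2.11 (standard error 0.688). HIC2 (chromosome 17), a zinc finger repressor, had 774 and 248 against 242 in I2 and 53.7 to 72.9 in the other biparental arrays. GATA5 (chromosome 13), a zinc finger factor known from endoderm and heart, had 316 and 191 against 187 in I2 and 33.7 to 82.7 in the others. In these genes P4 and I2 had nearly equal signals, apart from ADA.

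PPP1R3F, an X-linked gene for a subunit of protein phosphatase 1 that binds glycogen, had 2755 in P1 and 340 in P4, compared with 98.1 to 329, and its difference of 2.38 was 0.87 without P1. RNASE6 and ANG2, ribonucleases of the RNase A family on chromosome 10, were 2.22 and 1.88 higher. RNASE6 had 437 and 435 in the PA arrays, 363 in I2 and 37.3 to 75.7 in the others. ANG2 had 992 and 1163 against 839 in I2 and 121 to 320 in the others. Members of this family are close in sequence, and probes may share signal between them. I2 was the nearest biparental array for 9 of the 10 genes.

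Among the genes lower in PA-eSLCs, SLC6A4 (chromosome 19), the serotonin transporter, had 759 in P1 and 728 in P4, compared with 5394 in I2, 9257 in I9, 1762 in N2 and 1730 in N7. Its difference was -2.24 (standard error 0.75), and it was larger against IVP-eSLCs, at -3.25, than against NT-eSLCs, at -1.23. MYRFL (chromosome 5), related to the myelin regulatory factor, had 59.6 and 52.2 against 430, 739, 152 and 98.1. The PA arrays were close to each other in both genes.

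TUBA1A (chromosome 5), an alpha tubulin, had 6907 and 3485 against 15618 to 36048 and the lowest unadjusted p of these 9 genes (0.00318, limma). The other probe of TUBA1A gave 0.16, and tubulin genes are near copies of each other.

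Genes of vessels and matrix were among the separated genes too. VEGFC (chromosome 27), a growth factor of lymphatic vessels, had 15.4 in P1 and 22.3 in P4, compared with 40.1 to 145. THSD1 (chromosome 12), a membrane protein with a thrombospondin domain, had 34 and 64.8 against 92.1 to 316. MMP1 (chromosome 15), a collagenase, had 117 and 99.3 against 1040 in I2 and 181 to 533 in the others. Other probes of THSD1 and VEGFC gave 0.67 and -0.19, while those of MMP1 ran from -2.10 to -0.85.

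GUCY1B1 (chromosome 17), a subunit of the nitric oxide receptor, had 18.9 and 14.5 against 30.5 to 200. ZNF746 (chromosome 4), a zinc finger repressor, had 64.7 and 82 against 153 to 495. TMEM184B (chromosome 5), a transmembrane protein, had 176 and 265 against 279 in N2 and 1127 to 1979 in the 3 arrays of slide 1. Its difference of -2.18 was -0.37 against N2, and its 4 probes ran from -2.18 to -0.25. The probes of GUCY1B1 that were present ran from -2.03 to -0.97.

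Over the 10 genes higher in PA-eSLCs the differences ran from 0.87 to 2.93 without P1, from 1.98 to 3.50 without I2 and from 1.99 to 4.45 against N2 alone. HIC2 was at 1.46 and TNFRSF19 at 1.48 without P1, and GYPC had the 4.45 against N2. Over the 9 genes lower in PA-eSLCs they ran from -2.57 to -1.70 without P1, from -2.58 to -1.70 without I2 and from -2.98 to -0.37 against N2. MMP1 was at -0.75, ZNF746 at -1.07 and SLC6A4 at -1.25 against N2.

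**Figure D2:**
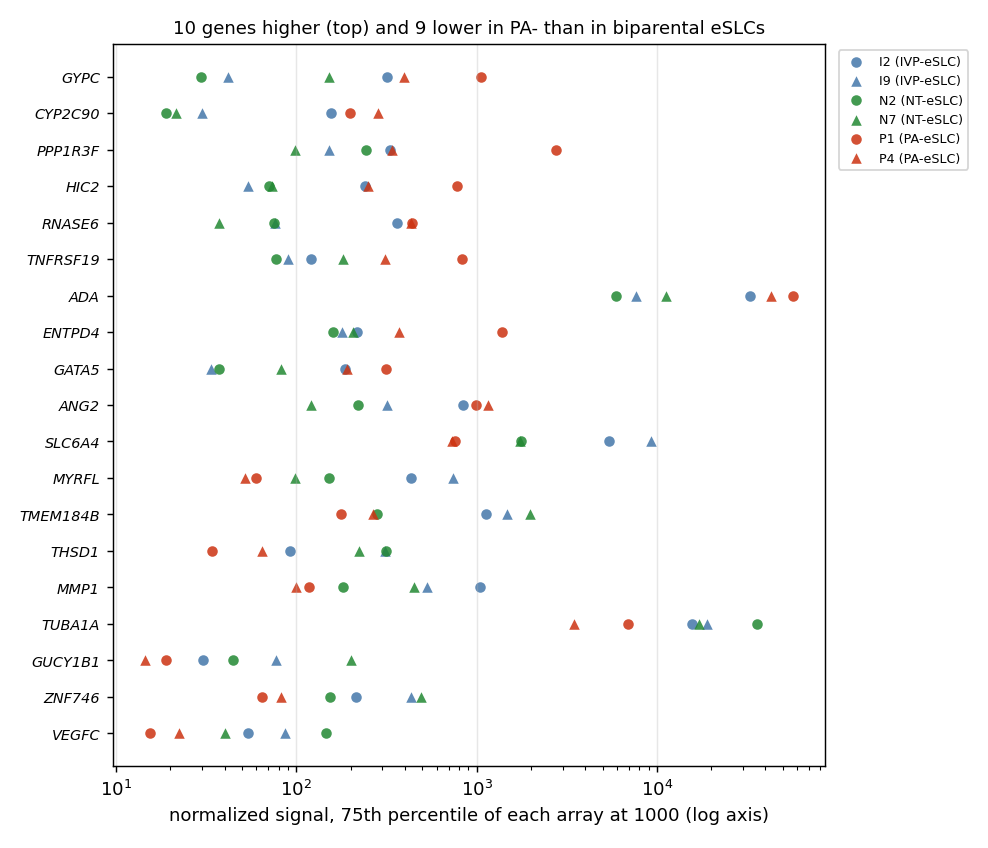
Points give the normalized signal of each of the 6 eSLC arrays on a log axis for the 10 genes higher and the 9 genes lower in PA-eSLCs, with colours for origin. The red PA points lie outside all biparental points for every gene, and the blue circle of I2 is the nearest biparental point for 9 of the 10 genes at the top.

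The question that the origin of the lines poses first is that of the imprinted genes. The arrays do not tell alleles apart, so that whether each listed gene is imprinted in these lines was not tested. Of 27 genes listed as expressed from the paternal allele, 16 had a named probe and 11 were tested. None of the 11 had both PA arrays apart from the biparental arrays, against 12.5% above and 4.9% below over all genes. The mean of 4 was higher and of 7 lower in PA-eSLCs, and the median difference was -0.06 beside 0.08 for all genes. The median was -0.37 without P1 and 0.19 against N2.

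SNRPN, a splicing factor gene of the Prader-Willi region (chromosome 21), had 4595 in P1 and 6702 in P4, compared with 4617 in I2, 6322 in I9, 5746 in N2 and 5676 in N7. The difference was -0.00, with a 95% interval of -0.58 to 0.57. SNURF, which shares its transcript, had 386 and 414 against 386 to 500. The signals of PA- and biparental lines overlapped in both, and no PA array was near the floor.

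MEST (chromosome 4), a hydrolase gene also known as PEG1, had 730 and 630 against 664 to 953, and its interval ran from -0.82 to 0.30. The 4 probes of MEST that were present gave -0.96 to -0.26. IMPACT (chromosome 24), a regulator of translation, had 669 and 474 against 496 to 665, and its 4 probes gave -0.06 to 0.20. DLK1 (chromosome 21), a Notch-like ligand, had 9200 and 4976 against 3702 to 5599, and its 5 probes gave 0.46 to 2.30. These genes too were measured in both PA lines, with P1 above the biparental range in DLK1 and IMPACT and P4 below it in MEST and IMPACT.

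IGF2 (chromosome 29), the insulin-like growth factor that drives fetal and placental growth, had 730 in P1 and 180 in P4, compared with 391 in I2, 310 in I9, 242 in N2 and 2668 in N7. The difference was -0.55 (standard error 1.1), 0.06 against IVP-eSLCs and -1.15 against NT-eSLCs. It was 0.58 against N2 alone and -1.56 without P1, so that its sign depended on the lines compared. P4 was the lowest of the 6 arrays and N7 the highest, with P1 between them. The 11 probes of IGF2 that were present gave -0.78 to 0.55.

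NNAT (chromosome 13), neuronatin, had 1002 in P1 and 93.6 in P4, which were the highest and the lowest of the 6 arrays, and its difference of 0.72 was -0.99 without P1. NAP1L5 (chromosome 6), a nucleosome assembly gene, had 123 and 154 against 149 in I2, 114 in N7, 29.5 in I9 and 17.7 in N2. NDN (chromosome 21), necdin, had 326 and 98.1 against 48 to 1463, with a difference of -0.43, which was 1.55 against N2 and -1.29 without P1. PLAGL1 (chromosome 9), a zinc finger gene that governs other imprinted genes, was not well above background in either PA array, and had 33.5 in I2 and at most 15.5 in the other biparental arrays. SGCE (chromosome 4), epsilon-sarcoglycan, had 35.7 in P1 and 13.3 to 35.8 in the other arrays, and P4 was not well above background. The remaining 5 genes with a probe, PEG10, RTL1, DIO3, ZIM2 and INS, were at the floor in all 6 arrays.

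Of 24 genes listed as expressed from the maternal allele, 17 had a named probe and 15 were tested. Both PA arrays lay above all biparental arrays for 3 of the 15, beside 12.5% of all genes, and below them for 1, beside 4.9%. The mean was higher for 7 and lower for 8, and the median was -0.01. The list was uneven along the genome. For the 8 genes tested on chromosome 29, which carries the cattle counterpart of the H19-IGF2 and KCNQ1 imprinted clusters, the median was 1.19, and 6 were higher. That median was 0.57 without P1, 1.39 without I2 and 1.85 against N2. For the 4 on chromosome 4 the median was -0.91, and all 4 were lower. This division by chromosome was made after the values were seen.

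CDKN1C (chromosome 29), an inhibitor of cyclin-dependent kinases that restrains growth, had 41176 in P1 and 18933 in P4, compared with 15705 in I2, 4776 in I9, 6495 in N2 and 8301 in N7. The difference was 1.81 (standard error 0.546, unadjusted p = 0.0158, adjusted p = 0.63, limma), and 1.25 without P1. Both PA arrays were above every biparental array, P4 only a little above I2. CDKN1C was the single imprinted gene with an unadjusted p under 0.05.

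PHLDA2 (chromosome 29), which limits placental growth, had 141588 in P1 and 17961 in P4, compared with 62162 in I2 and 3956 to 4268 in I9, N2 and N7. The difference of 2.63 (standard error 1.41) had an interval of -0.80 to 6.06, and it was 3.60 without I2 and 1.14 without P1. TSPAN32, a tetraspanin gene of the same cluster, had 11181 and 3563 against 8928 in I2 and 437 to 1814 in the others, and its difference of 2.13 was 1.30 without P1 and 3.85 against N2. The 3 probes of TSPAN32 ran from 0.37 to 2.13. In both genes P1 was the highest array, I2 came next, and P4 followed above the other 3.

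H19 (chromosome 29), a non-coding RNA that lies next to IGF2, had 998 in P1 and 62.3 in P4, compared with 36.1 to 195. Its difference of 1.55 became -0.45 without P1, so that it rested on that array. ASCL2, a transcription factor of trophoblast progenitors, had 10263 and 7724 against 9018, 3535, 2490 and 7935 in I2, I9, N2 and N7. CD81, a tetraspanin, had 132210 and 87208 against 31620 to 80054. TSSC4 had 2091 and 3729 against 2300 to 5026, and NAP1L4 had 9595 and 7200 against 8032 to 10338. Among the 8 genes, TSSC4 and NAP1L4 were the ones without a higher mean.

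IGF2R (chromosome 9), the receptor that clears IGF2, had 8800 in P1 and 9234 in P4, compared with 8009 in I2, 3510 in I9, 5024 in N2 and 6999 in N7, and a difference of 0.68 with an interval of -0.19 to 1.56. MEG3 (chromosome 21), a non-coding RNA, had 207 in P1, was not well above background in P4, and had 55.6 to 173 in the biparental arrays. Its difference of -0.62 was -2.60 without P1. UBE3A (chromosome 21), a ubiquitin ligase imprinted mainly in neurons, had 1953 and 2759 against 2100 to 2659.

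On chromosome 4, DLX5, a homeobox factor, had 1173 in P1 and 1164 in P4, compared with 1306 in I2, 4348 in I9, 4739 in N2 and 1960 in N7, a difference of -1.21 (standard error 0.57). From the deposited matrix of processed values it was 2.56, in the other direction. GRB10, an adaptor that restrains insulin signaling, had 1954 and 3052 against 2804 to 7395. TFPI2, a protease inhibitor of placenta, had 42.6 in P1 and was at the floor in P4, against 22.7 to 275. PPP1R9A had 20.5 and 37.3 against 20.4 to 59.5. Over the 11 maternally expressed genes outside chromosome 4 the median was 0.81.

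**Figure D3:**
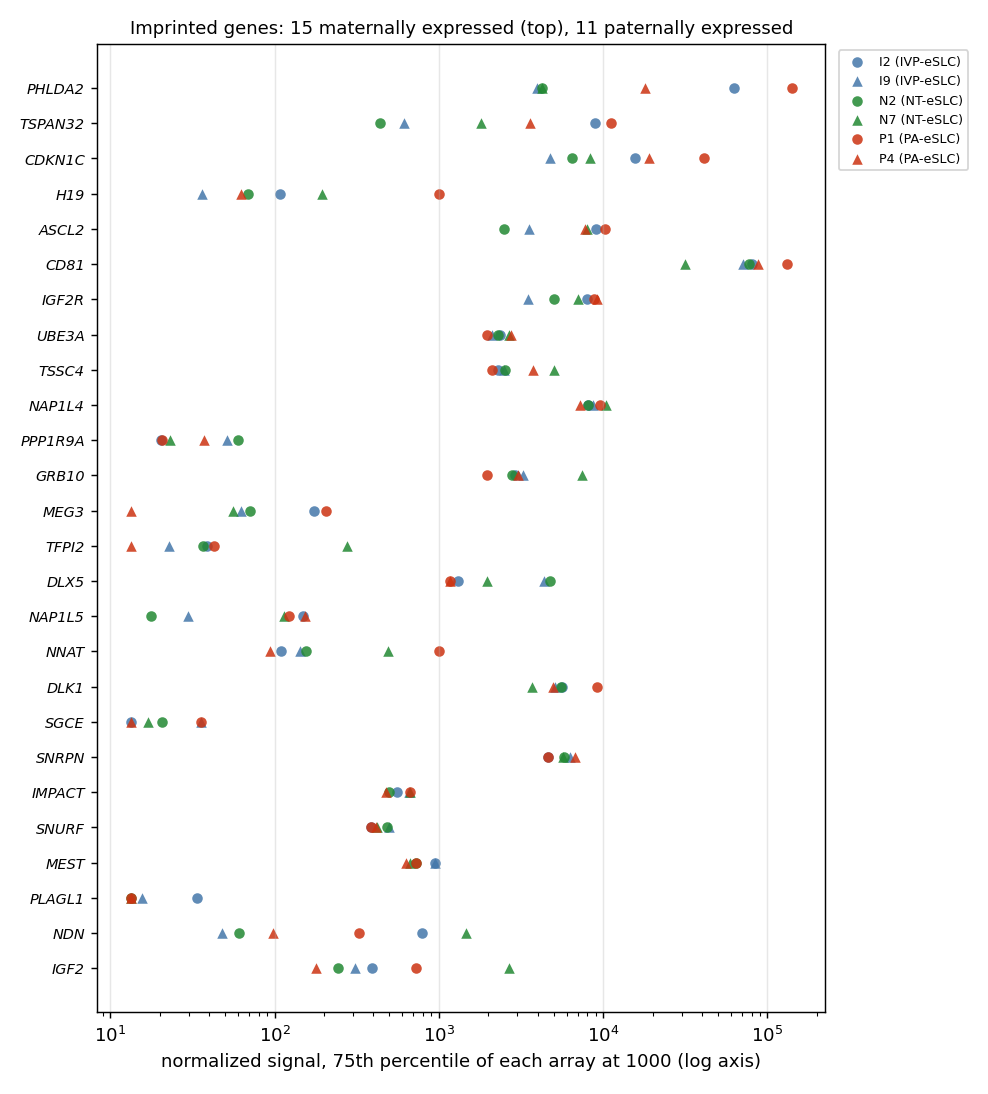
Points give the normalized signal of each eSLC array on a log axis for the 15 maternally expressed genes tested (top, from the highest to the lowest difference) and the 11 paternally expressed genes tested. For no paternally expressed gene do both PA points lie on 1 side of all biparental points, and P1 (red circle) and I2 (blue circle) are the 2 highest points of PHLDA2 and TSPAN32.

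Chromosome 4 stood out as a whole. The chromosomes are those of the RefSeq annotation of ARS-UCD2.0, and this comparison was made after the values were seen. Of 288 genes tested on chromosome 4, 249 (86.5%) had a lower mean in PA-eSLCs, beside 42.1% of all genes, and the median difference was -0.55. Medians of the other autosomes and of the X chromosome ran from -0.12 on chromosome 12 to 0.18 on chromosome 27. Both PA arrays lay below all 4 biparental arrays for 42 of the 288 genes, or 14.6%, beside 4.9% of all genes. Chromosome 4 held 19 of the 110 separated genes that were at least 2-fold lower.

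The lower signals were not those of the PA arrays alone. As a deviation from the median of the 6 eSLC arrays, centred on each array, the genes of chromosome 4 had a median of -0.36 in P1, -0.35 in P4 and -0.42 in I2. The median was 0.39 in I9, 0.38 in N2, 0.43 in N7, and 0.36 and 0.42 in the SC arrays at passages 5 and 10. Set against single arrays, the mean of the PA arrays was 0.79 lower than I9, 0.77 lower than N2 and 0.78 lower than N7 in median, and 0.07 higher than I2. The array on the slide of the PA arrays and those on the other slide thus gave like values, and I2, an IVP line, lay with the PA arrays.

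Without I2 the median difference of chromosome 4 was -0.76, and both PA arrays were below the remaining 3 for 174 of the 288 genes (60.4%), beside 11.2% of all genes. Without P1 it was -0.55. It kept its sign under every alternative tried, from -0.77 with the slide as a block to -0.26 with the series matrix values. The genes were lower along the whole chromosome. In 12 blocks of 24 genes in order of position, the median difference ran from -0.76 to -0.28. Copy number was not measured on these arrays, and the cause of the difference was not tested.

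**Figure D4:**
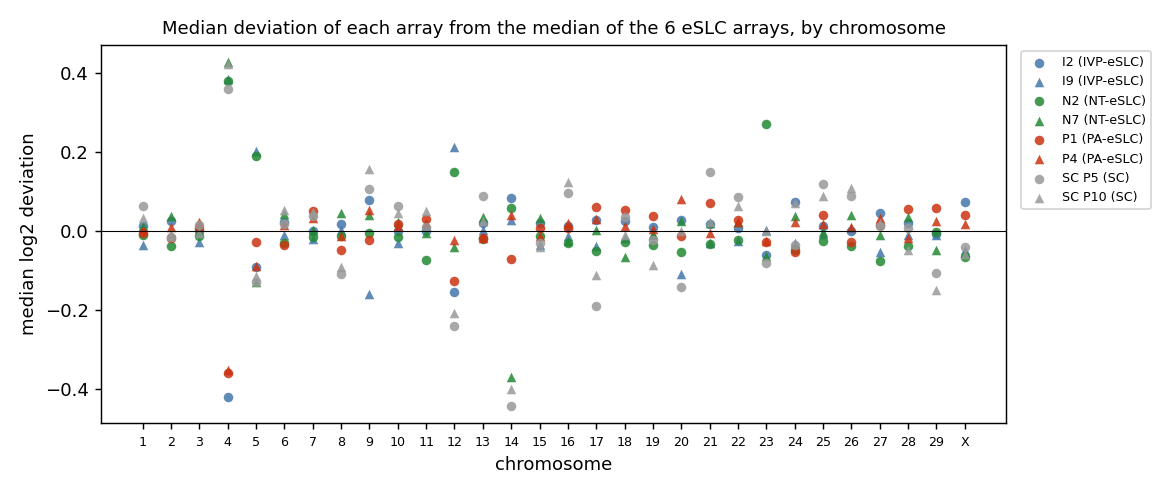
Points give, for each array and chromosome, the median log2 deviation of the genes tested from the median of the 6 eSLC arrays, centred on the median over all genes of that array. On chromosome 4 P1, P4 and I2 lie between -0.42 and -0.35 and the other 5 arrays between 0.36 and 0.43, and N7 and the SC arrays lie low on chromosome 14.

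**Figure D5:**
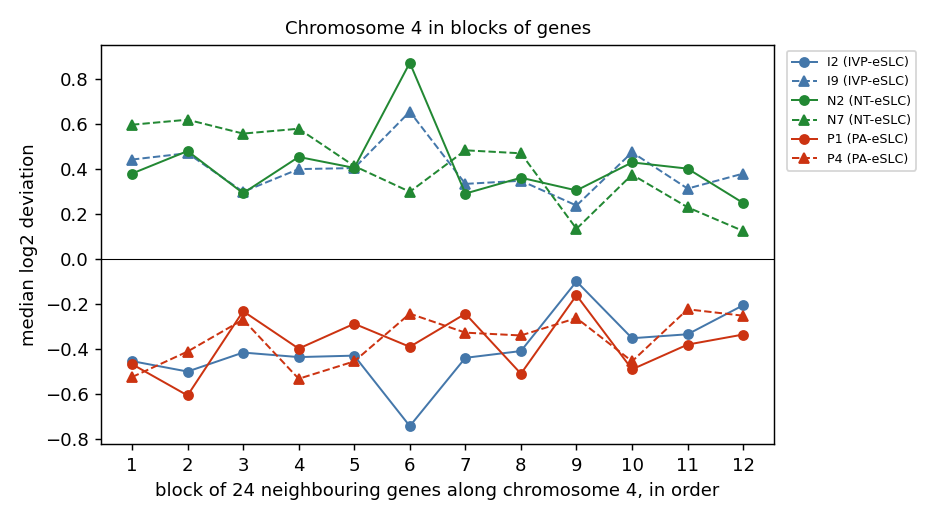
Lines give the median log2 deviation of each eSLC array in 12 blocks of 24 neighbouring genes along chromosome 4, as deviations from the median of the 6 arrays. P1, P4 and I2 are below 0 and I9, N2 and N7 above 0 in every block.

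Genes of chromosome 4 from the other lists gave the following values. IGFBP3, which binds insulin-like growth factors, had 6853 in P1 and 5555 in P4, compared with 7715 in I2, 9323 in N7, 13646 in I9 and 28092 in N2. LAMB1, a laminin chain of basement membrane, had 7072 and 5293 against 6225 in I2 and 11712 to 18982 in the others. CALD1, caldesmon of the contractile apparatus, had 8210 and 11281 against 9305 in I2 and 27304 to 44243 in the others. Their differences were -1.06, -0.92 and -1.43. I2 lay within or next to the PA arrays in each.

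Deviations on the other chromosomes were smaller in the PA arrays. The median deviation on chromosome 14 was -0.37 in N7, and on chromosome 23 it was 0.27 in N2. Chromosomes 5 and 12 had deviations of 0.20 and 0.21 in I9 and of 0.19 and 0.15 in N2. P1 and P4 lay between -0.13 and 0.08 on every chromosome other than chromosome 4.

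The X chromosome had a median difference of 0.13 over 333 genes, beside 0.08 for all genes, and the deviation was 0.04 in P1, 0.02 in P4 and 0.07 in I2, and -0.06 to -0.05 in I9, N2 and N7. Of 16 X-linked genes listed for dosage, 10 were higher and 6 lower, none was called, and both PA arrays were above all others for 3, beside 12.5% of all genes. KDM6A, a histone demethylase known to escape X inactivation, had 400 and 508 against 249 to 373. Its 6 probes ran from -0.53 to 1.12, so that the sign depended on the probe. XIAP, an inhibitor of apoptosis, had 145 and 101 against 58.5 to 96. MAOA, monoamine oxidase A, had 588 in P1 and 83.4 in P4, compared with 279 in I2 and 29.9 to 76.4 in the others, and its difference of 1.61 was 0.20 without P1. LOC767968, listed by its older names BEX1 and BEX2, had 1610 and 1529 against 1232 to 4355, with a difference of -0.60.

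Genes of the centriole, whose formation follows another course in embryos without sperm, gave the list with the most unadjusted p-values under 0.05, 5 of 15 genes tested beside 7.34% of all genes, and none was called after adjustment. The mean was higher in PA-eSLCs for 12 of the 15, beside 57.9% of all genes, with a median of 0.16, and both PA arrays lay above all others for 4, beside 12.5%. CEP97, which caps the growing centriole, had 62 in P1 and 57.9 in P4, compared with 23.8 to 32.9, a difference of 1.00 (standard error 0.207, unadjusted p = 0.0028, limma). ODF2, a protein of the centriole appendages, had 1953 and 1701 against 656 to 1380, although its 4 probes ran from -0.25 to 0.95. CETN3, a centrin, had 3397 and 3164 against 1643 to 2617. CEP135 had 505 and 543 against 523 in N7 and 158 to 471 in the others.

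Of 23 genes of the mitotic spindle and its checkpoint that were tested, 13 had a higher and 10 a lower mean. Their median was 0.04, which was 0.17 without P1, -0.02 without I2 and 0.19 against N2. BUB1B, a kinase of the checkpoint, had 1547 and 1707 against 1155 to 1192, and the biparental arrays were within a narrow range. CENPF, a kinetochore protein, had 1407 and 1647 against 1749 to 2220. Of 17 p53 targets and growth arrest genes 9 were higher and 8 lower, with a median of 0.04, which was -0.17 against N2. TP53I3, an oxidoreductase gene induced by p53, had 242 and 509 against 348 in I2, 375 in N7, 2846 in I9 and 3143 in N2, a difference of -1.57. FAS, a death receptor, had 207 and 143 against 129 in I2 and 526 to 704 in the others, a difference of -1.21. P1, P4 and I2 had low signals in both. ZMAT3, a p53 target, had 105 and 88.9 against 42.5 to 68.7, and GADD45G, a stress gene, had 1969 and 2359 against 2495 to 5275.

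The de novo DNA methyltransferases had signals in the PA lines that I2 and N7 shared. DNMT3A had 31995 in P1 and 33597 in P4, compared with 35151 in I2, 23957 in N7, 5219 in I9 and 4268 in N2. The differences of its 3 probes ran from 0.09 to 1.49. DNMT3B had 532 and 430 against 750, 505, 125 and 100 in the same order. Over 13 genes of DNA methylation and imprint maintenance, 5 were higher and 8 lower, with a median of -0.14. That median was -0.09 without P1, 0.02 without I2 and 0.09 against N2. Over 13 genes of the insulin-like growth factor system 6 were higher and 7 lower, with a median of -0.04. That median was -0.40 without P1, 0.06 without I2 and -0.22 against N2.

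Of the trophectoderm markers, 21 were tested, 14 were higher and 7 lower, and the median was 0.38 beside 0.08 for all genes. The median was 0.07 against N2, 0.11 against IVP-eSLCs and 0.19 without P1. Both PA arrays lay above all others for 3 of them, beside 12.5% of all genes. CDX2 had 13312 and 14887 against 10374 in I2 and 5183 to 7423 in the others, and a difference of 0.98 (standard error 0.299, unadjusted p = 0.0169, adjusted p = 0.63, limma), 0.92 against N2. ATP1B3, a subunit of the sodium pump that fills the blastocoel, had 278146 and 176469 against 162671 in I2 and 86148 to 98070 in the others. GATA2 had 42287 and 41942 against 31518 to 40370. KRT8 and KRT18, the keratins of simple epithelium, were 0.74 and 0.78 higher, and -0.10 and -0.17 against N2 on the same slide. After quantile normalization their differences were 0.06 and 0.13. Those of ATP1B3, GATA2 and CDX2 went from 1.08, 0.27 and 0.98 to 0.52, 0.10 and 0.87. Other members had lower means. KRT7, a further keratin, had 93.9 in P1 and 1858 in P4, compared with 221 in I2 and 738 to 3922 in the others, and its difference of -1.54 was 0.61 without P1. HAND1, a factor of trophoblast differentiation, had 2288 and 2980 against 1666 to 8929, and PPARG, a nuclear receptor, had 655 and 1252 against 797 to 2847, both with a difference of -0.80.

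Of 26 secreted products of ruminant trophoblast that were tested, 17 were higher and 9 lower, with a median of 0.10, and both PA arrays were above the others for 1, beside 12.5% of all genes. The median was -0.60 against N2, in the other direction. PAG5, a pregnancy-associated glycoprotein, had 8168 in P1 and 1087 in P4, compared with 247 in I2 and 5578 to 39655 in the others. PAG10 had 37.7 and 654 against 13.7 to 143, and the prolactin-related PRP4 had 18.5 and 794 against 13.3 to 320. The 2 PA lines lay far apart in each. The PAG genes form a large family of near copies, and their probes may share signal.

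Of 19 interferon-stimulated genes tested, 15 had a lower mean in PA-eSLCs, beside 42.1% of all genes, with a median of -0.58. None had the arrays apart, beside 12.5% of all genes with PA above and 4.9% with PA below. The median was 0.02 without P1, -1.16 without I2 and -1.72 against N2. The summed signal of the list was 23162 in P1, 22460 in P4 and 15086 in I2, and 21879 to 31904 in the others. MX1, an antiviral GTPase, had 43.2 in P1 and 1667 in P4, compared with 321 in I2, 2809 in I9, 3958 in N2 and 1569 in N7. ISG15, a ubiquitin-like modifier, had 14.5 in P1 and 847 in P4, compared with 66.9 in I2 and 672 to 1418 in the others. XAF1, which acts in interferon-induced cell death, had 18 and 170 against 42.7 in I2 and 179 to 712. P1 was the lowest array in each of these 3 genes and I2 the next lowest. Without P1 their differences were 0.12, 0.83 and -0.28.

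Of 19 hypoblast and endoderm markers tested, 15 were lower in PA-eSLCs, beside 42.1% of all genes. Both PA arrays lay below all others for 3, beside 4.9%. The median was -0.61, which was 0.06 against IVP-eSLCs, -1.20 against NT-eSLCs and -0.14 against N2. HNF4A had 9022 in N7 and at most 23.4 in the other 5 arrays, and GATA4 had 2918 in N7, 73.1 in P1 and 131 in P4. FGG, the fibrinogen gamma chain, had 87.2 and 64.2 against 111 to 206, and COL4A1, a collagen of basement membrane, had 1389 and 1878 against 1872 to 10248. The summed signal of the 19 genes was 68034 in P1, 56669 in P4, 219861 in N7, and from 58496 to 59769 for the remaining lines.

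Of 21 fibroblast markers tested, 15 were lower, beside 42.1% of all genes, and 6 higher. Both PA arrays lay below all others for 2, beside 4.9%. The median of the 21 markers was -0.27, which was -0.53 without I2 and against N2. Their summed signal was 36312 in P1, 38426 in P4 and 31864 in I2, and 74397 to 126542 in the other biparental arrays. ACTA2, smooth muscle actin, had 597 in P1 and 471 in P4, compared with 822 in I2, 6717 in I9, 16040 in N2 and 1970 in N7, and its difference of -2.78 (standard error 1.16) had an unadjusted p of 0.0538 (adjusted p = 0.63, limma). It was -4.92 against N2. THBS1, a matrix glycoprotein, had 105 and 142 against 45.2 in I2 and 216 to 2036 in the others. In the other direction, COL6A2, a chain of collagen VI, had 341 and 66.8 against 135 in I2 and 14.3 to 53.9 in the others, and its difference of 1.68 was 0.50 without P1. LOX, which crosslinks collagen, had 242 and 110 against 218 in I2 and 33.3 to 40.3 in the others, a difference of 1.49. The part of such cells in the genes lower in PA-eSLCs was not tested. Of 13 epiblast markers 8 were higher and 5 lower, with a median of 0.06, which was -0.09 without P1 and 0.38 against N2. For none was the PA array pair apart, beside 12.5% of all genes above and 4.9% below.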

How the data were processed

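Total RNA of 8 samples was labelled with Cy3 and hybridized to Agilent bovine arrays with 1 colour. The authors scanned them with Feature Extraction and analysed them with GeneSpring GX. They deposited linear signal intensities of the scanner for each array, and a matrix of processed intensities whose normalization is not given in the sources used here. Within each array, the rank order of the matrix followed the background-subtracted signal (rank correlation 0.96 to 0.98), while some group differences had another sign. The processed signal column did not follow it in 6 files (0.16 to 0.22) and was an alternative.

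Control spots and 1 to 11 outlier spots per array were left out of 45220. Signals were divided by the 75th percentile, set to at least 13.3 and log2-transformed. Of 43653 probes, 26743 were named through RefSeq accessions (ARS-UCD2.0), for 12603 genes, and the brightest probe of a gene was used. A gene was tested if well above background on both arrays of at least 1 origin. On each array the lowest signal above background lay 75.3 to 136 times under that percentile, and the number of arrays limits the precision. The test between PA and biparental arrays used lmFit and eBayes on 6 arrays (limma 3.58.1, R 4.3.3). In 2 against 4 arrays, 15 regroupings allow no single-gene p under 0.05. On simulated data for this comparison (10571 genes, 200 changed 4-fold) it recovered 68.5%, with 8 unchanged genes called. The simulated noise was normal and independent, without the shared array differences described above, so that this share may be too high for the measured arrays. The comparison members and the 16 gene lists were chosen with earlier results of these data known. Named were the 10 largest differences in each direction (as defined in the text, 1 not reported here), imprinted genes, and members of the other lists from among those with the largest differences, beside markers used to check the labels, which were chosen after their values were seen. Normexp (offset 50) used the median signals of spot and background. Alternatives covered scaling, filter, floor, probes, background, signal source, fit, slide, biparental lines and each array left out. Figures were drawn with matplotlib version 3.10.9.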

Additional observations from a re-analysis of the deposited data

Results flagged for a closer look

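Among the 4 biparental arrays, 1 array stood far from the others in 18 of 128 values checked by Dixon's test at the 95% level. Given in brackets is the gap to its neighbour as a share of the range. Chance marks about 1 in 20, which does not hold where the other arrays are tied at the floor, as in the genes with a share of 1.000.

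I2 stood apart in chromosome 4 (share 0.943), where its median deviation was -0.42, and on the X chromosome (0.881, median deviation 0.07). It also stood apart in PHLDA2 (0.972), with 62162 against 3956 to 4268, in LOX (0.899) and in PLAGL1 (0.830). In chromosome 4, the X chromosome, LOX and PHLDA2 the value of I2 lay on the side of the PA arrays.

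N7 stood apart on chromosome 14 (0.879) and chromosome 29 (0.849, median deviation -0.05). Its signals were high in HNF4A (0.958), POU5F1 (0.853), GRB10 (0.847) and TSSC4 (0.876) and low in CD81 (0.868). N7 was the 1 biparental array above the floor for DDX3Y, EIF1AY, USP9Y and TSPY (1.000 each). With the other biparental arrays tied at the floor, this share was fixed whatever the signal of N7. I9 was low in CEP97 (0.897) and high in POLR2A (0.978), the large subunit of RNA polymerase II, with 2786 against 1735 to 1752.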

How the results depend on the processing

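The count of limma calls stayed at 0 in each direction with few exceptions. It was 2 higher and 4 lower with the series matrix values, and 1 higher and 1 lower without I2. It also moved without P4, where P1 is the only PA array. The methods' t-test on unadjusted p gave 57 higher and 45 lower, and 0 and 0 after Benjamini-Hochberg. The separated genes, 130 higher and 110 lower, were 85 higher with the mean of probes, 49 lower with normexp, 574 lower with the processed signal, 659 higher with the series matrix values, 788 and 752 against N2 alone, 551 and 362 against NT, 209 lower against IVP, and 407 and 399 without I2 and P1. With 1 array left out they ranged from 118 to 747 higher and 87 to 432 lower, the highest without P4. Without chromosome 4 there were 91 lower.

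The median of the maternally expressed genes, -0.01, was 0.34 with genes present on all 6 arrays, 0.25 with normexp, 1.26 with the processed signal, 1.27 with the series matrix values, 0.14 with the slide as a block and against N2, 0.22 against IVP, 0.24 without I2 and P1, 0.81 without chromosome 4, and -0.067 to 0.65 with 1 array left out. That of the paternally expressed genes, -0.06, was -0.34 with the series matrix values, 0.19 with the slide as a block and against N2, -0.0017 against IVP, -0.29 without I2 and P1, and -0.37 to 0.44 with 1 array left out. Neither median has a stable sign. The median of all genes was 0.11 with median scaling, 0.15 with normexp and 0.33 with the series matrix values.

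Among named genes with a difference of at least 2-fold or an unadjusted p under 0.05, signs turned with the processed signal for CYP2C90 (-0.27), HIC2 (-1.98), RNASE6 (-0.14), GATA5 (-0.053), MMP1 (2.50), NAP1L5 (-1.46), DLX5 (2.03), DNMT3A (-0.18), PRP4 (-1.55), CDX2 (-4.72), HNF4A (0.99), MAOA (-1.46), KRT7 (1.34), LOX (-0.22) and POLR2A (0.36). The processed signal did not follow the background-subtracted signal in I9, N7, P1 and P4 (rank correlation 0.16 to 0.21). Its values here and above therefore cannot show how stable the differences are. Signs turned with the series matrix values for NAP1L5 (-0.92), DLX5 (2.56), KRT7 (1.88) and POLR2A (0.89), and against IVP for HNF4A (0.11). With 1 array left out, the range was -0.45 to 3.55 for H19, -5.16 to 0.12 for MX1, -3.70 to 0.61 for KRT7 and -5.03 to 0.83 for ISG15, with the sign turned without P1, and H19 was -0.33 without I2 and P1. It was -0.25 to 3.87 for PAG10, -1.39 to 4.04 for PRP4 and -2.78 to 0.27 for PAG5, turned without P4, and -3.06 to 0.0041 for HNF4A, turned without N7. The cause of these shifts was not tested. No paired analysis was possible because the labels give every line the same replicate number.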
